A study of Mus musculus with 24 samples.

Results

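The data set out here are the main effect of the drug BCI-838 on gene expression in the dentate gyrus of APP/PS1 mice, taken across mice with and without a running wheel. Of the 24 libraries in the series, 19 come from APP/PS1 mice and enter this comparison: 4 from mice given BCI-838 alone (the BCI-838 group), 5 from mice given BCI-838 and a wheel (the combined group), 5 from APP/PS1 mice with neither (the control group) and 5 from APP/PS1 mice with a wheel alone (the exercise group). The main effect is the mean of the BCI-838 and combined groups, 9 libraries, minus the mean of the control and exercise groups, 10 libraries, with a weight of 0.5 for each group. All 19 mice carry the APP and PS1 transgenes. By the labels, the drug was dosed orally each day at 5 mg/kg over 1 month, wheels were freely available over the same 1 month, and mice without drug received vehicle. The sources used here do not give the transgene promoter or the age and sex of the mice. The dentate gyri of 5 mice per group were collected, so replicates are described as separate mice.

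BCI-838 is taken orally and converted in the body to a blocker of mGluR2 and mGluR3, the group II metabotropic glutamate receptors. These receptors couple to inhibitory G proteins, lower cyclic AMP and, on glutamatergic terminals, reduce transmitter release. The dentate gyrus holds the granule neurons of the hippocampal formation and a stem cell niche that adds granule neurons in adult life, and APP/PS1 mice deposit amyloid plaques there. The series asks how the drug and running act on neurogenesis and behaviour in such mice.

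Library totals ran from 51407295 to 64632882 counts. App was above all 5 wild-type libraries in 19 of 19 APP/PS1 libraries, at 2467 CPM or more in APP/PS1 mice against 2073 CPM or less in wild-type mice, and so was Prnp. Every library held granule neuron transcripts, but also RNA of neighbouring tissue in differing amounts. Ttr, the leading choroid plexus transcript, stood above 100 CPM in combined replicate 5 and in control replicates 2, 4 and 5. The dorsal midbrain factor Pax7 was between 6.73 and 13.4 CPM in all 4 BCI-838 libraries and was listed at 0 in combined replicates 4 and 5, control replicates 2 and 5 and exercise replicate 5. In bulk tissue, fewer cells of a type and less RNA per cell cannot be told apart.

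How many genes passed for BCI-838 depended on the test and on single libraries. Of 18155 genes tested, 17 were called at an adjusted p under 0.05 by the quasi-likelihood test of edgeR with Benjamini-Hochberg adjustment, which is 0.0936% of them. Of these, 7 rose (0.0386% of the genes tested) and 10 fell (0.0551%). Their adjusted p-values lay between 0.0441 and 0.0478, close to the threshold. DESeq2 called 581 genes, voom with quality weights 1939 and edgeR with 1 surrogate variable 276, while 13 of the 19 edgeR fits that left out 1 library called 0. At an unadjusted p under 0.05 there were 3229 genes, 1507 higher and 1722 lower with BCI-838. Over all genes 46.7% were higher and the median log2 fold change was -0.01. Among the 17, 12 have names of their own, 5 that rose and 7 that fell.

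Penk rose the most among the named genes. It encodes proenkephalin, the precursor of the enkephalin opioid peptides, and lies at chr4:4133536-4138815 on the minus strand of GRCm38. Penk had 42.1, 230.1, 219 and 83.8 CPM in BCI-838 mice and 67.6, 26.7, 213, 79.0 and 31.7 CPM in combined mice, against 32.5, 20.7, 14.4, 23.5 and 28.1 CPM in control mice and 25.5, 30.7, 22.0, 22.3 and 31.3 CPM in exercise mice. In 7 of the 9 mice with BCI-838 the level was above every mouse without it, and the exceptions were combined replicates 2 and 5. The mice with BCI-838 spread from 26.7 to 230.1 CPM, a far wider range than the 14.4 to 32.5 CPM of the mice without it. Group means were 144 ± 94.9 CPM in BCI-838 mice (SD, n = 4) and 83.7 ± 76.0 CPM in combined mice (SD, n = 5), against 23.9 ± 6.95 CPM in control mice and 26.3 ± 4.46 CPM in exercise mice (SD, n = 5 each). The main effect was 4.37-fold, a log2 fold change of 2.13 (SE 0.37; edgeR, adjusted p = 0.0441). Penk shares exonic bases with A830012C17Rik on the other strand, and the sources used here do not say whether reads were counted by strand.

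The other named genes that rose did so by 1.38- to 1.46-fold and with tighter groups. Rab8b encodes a small GTPase of membrane traffic and lies at chr9:66843609-66919705. Rab8b averaged 82.1 ± 9.59 CPM in BCI-838 mice (SD, n = 4) and 81.0 ± 13.2 CPM in combined mice (SD, n = 5), against 57.0 ± 9.75 CPM in control mice and 57.1 ± 8.04 CPM in exercise mice (SD, n = 5 each), a rise of 1.43-fold (adjusted p = 0.0478 by edgeR). All BCI-838 and combined libraries but combined replicate 2, at 57.7 CPM, were above the highest library without drug, control replicate 3 at 68.0 CPM. Prkab2, a regulatory subunit of the energy sensor AMP-activated kinase at chr3:97658211-97673812, averaged 51.7 ± 5.26 CPM in BCI-838 mice (SD, n = 4) and 53.4 ± 7.08 CPM in combined mice (SD, n = 5), against 39.1 ± 5.12 CPM in control mice and 37.0 ± 5.91 CPM in exercise mice (SD, n = 5 each). Its 1.38-fold rise again had 8 of the 9 mice with BCI-838 above all others.

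Parp8, of the ADP-ribosyltransferase family, lies at chr13:116850842-117026019 and rose 1.41-fold (adjusted p = 0.0442 by edgeR). Parp8 had 37.2, 33.9, 32.8 and 31.0 CPM in BCI-838 mice and 43.6, 27.4, 37.8, 33.9 and 43.9 CPM in combined mice, against 24.7, 19.6, 22.0, 29.1 and 28.7 CPM in control mice and 20.9, 27.3, 24.8, 28.2 and 25.4 CPM in exercise mice. The groups overlap only through combined replicate 2. Dpy19l3 encodes an enzyme that adds mannose to tryptophan in secreted proteins and lies at chr7:35685500-35754460. Dpy19l3 averaged 77.4 ± 15.5 CPM in BCI-838 mice (SD, n = 4) and 90.1 ± 17.7 CPM in combined mice (SD, n = 5), against 61.9 ± 6.47 CPM in control mice and 53.0 ± 5.52 CPM in exercise mice (SD, n = 5 each), a rise of 1.46-fold. Here 6 of the 9 mice with BCI-838 were above all 10 without.

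Next by p among the higher genes, and not called, were 7 more. The scaffold gene Cass4 had a log2 fold change of 0.88 (SE 0.17; edgeR, adjusted p = 0.059) and Rassf8, a Ras-association domain gene, one of 0.92 (SE 0.18). Dgkb, a diacylglycerol kinase, was at 0.73, the oxytocin receptor gene Oxtr at 1.02, the synapsin gene Syn3 at 0.53, Rabgap1l at 0.44 and Dopey2 at 0.27. Oxtr averaged 4.33 ± 1.84 CPM in BCI-838 mice (SD, n = 4) and 3.72 ± 1.18 CPM in combined mice (SD, n = 5), against 2.20 ± 0.462 CPM in control mice and 1.79 ± 0.538 CPM in exercise mice (SD, n = 5 each).

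Among the genes that fell, Wnt9a and Fam160a1 fell the most of those with names. Wnt9a encodes a secreted Wnt ligand and lies at chr11:59306849-59333552. Wnt9a had 4.79, 4.30, 4.32 and 2.63 CPM in BCI-838 mice and 5.62, 20.2, 3.12, 8.21 and 5.81 CPM in combined mice, against 9.42, 22.3, 15.9, 16.1 and 20.5 CPM in control mice and 21.4, 15.5, 18.8, 11.9 and 23.4 CPM in exercise mice. All mice with BCI-838 were below every mouse without it except combined replicate 2, which had the fifth highest level of the 19. The main effect was 2.98-fold lower, a log2 fold change of -1.57 (SE 0.28; edgeR, adjusted p = 0.0441).

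Fam160a1, at chr3:85660063-85785302, had 3.45, 2.44, 3.14 and 2.41 CPM in BCI-838 mice and 5.99, 11.9, 2.87, 3.08 and 7.13 CPM in combined mice, against 8.26, 13.7, 9.29, 11.2 and 12.7 CPM in control mice and 12.0, 8.20, 12.1, 6.27 and 12.0 CPM in exercise mice. The 4 BCI-838 libraries are tight and low, whereas combined replicates 2 and 5 run into the range of the mice without drug. The gene fell 2.51-fold (log2 fold change -1.33, SE 0.23, adjusted p = 0.0441 by edgeR). It shares exonic bases with Gm37240 on its own strand, so its counts are uncertain.

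Il11ra1, the alpha chain of the interleukin 11 receptor at chr4:41760443-41769473, averaged 21.6 ± 0.658 CPM in BCI-838 mice (SD, n = 4) and 22.2 ± 5.09 CPM in combined mice (SD, n = 5), against 30.7 ± 2.05 CPM in control mice and 29.4 ± 3.27 CPM in exercise mice (SD, n = 5 each). It fell 1.37-fold, and 8 of the 9 mice with BCI-838 were below all others. Slc25a28 encodes mitoferrin 2, a mitochondrial iron carrier, and lies at chr19:43663801-43675006. Slc25a28 had 33.6, 32.9, 32.3 and 33.3 CPM in BCI-838 mice and 34.1, 35.2, 34.1, 34.2 and 35.1 CPM in combined mice, against 39.8, 36.0, 36.9, 35.4 and 39.1 CPM in control mice and 49.4, 43.7, 40.1, 38.6 and 43.3 CPM in exercise mice. It was the only called gene whose groups do not overlap, with a fall of 1.19-fold (log2 fold change -0.25, SE 0.04, adjusted p = 0.0441 by edgeR). Over all genes tested 3, or 0.0165%, had all 9 mice with BCI-838 on 1 side of the other 10; the others were Ralgps1 and Abcb4, higher at log2 fold changes of 0.36 and 0.42 and not called.

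The remaining named falls were small. Plekhh3, at chr11:101162679-101171378, fell 1.39-fold and shares exonic bases with Cntnap1 on the other strand. Tpd52l1, of the tumour protein D52 family at chr10:31332373-31445987, averaged 17.2 ± 1.95 CPM in BCI-838 mice (SD, n = 4) and 14.7 ± 2.92 CPM in combined mice (SD, n = 5), against 22.7 ± 3.93 CPM in control mice and 23.7 ± 2.05 CPM in exercise mice (SD, n = 5 each), a fall of 1.46-fold. Tmem109, a membrane protein gene at chr19:10870657-10881743, fell 1.23-fold, with 8 of 9 mice with BCI-838 below all others. Next by p and not called were Tgfa, a ligand of the epidermal growth factor receptor, at a log2 fold change of -0.41 (SE 0.08; edgeR, adjusted p = 0.0594), the sphingosine-1-phosphate exporter gene Spns2 at -0.37, the Fanconi anaemia gene Fance at -0.32 and Ccdc63 at -1.48. Tmem171 had no count in any BCI-838 mouse and 0.0841 ± 0.0954 CPM in combined mice (SD, n = 5), against 0.231 ± 0.124 CPM in control mice and 0.328 ± 0.163 CPM in exercise mice (SD, n = 5 each).

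**Figure D1:**
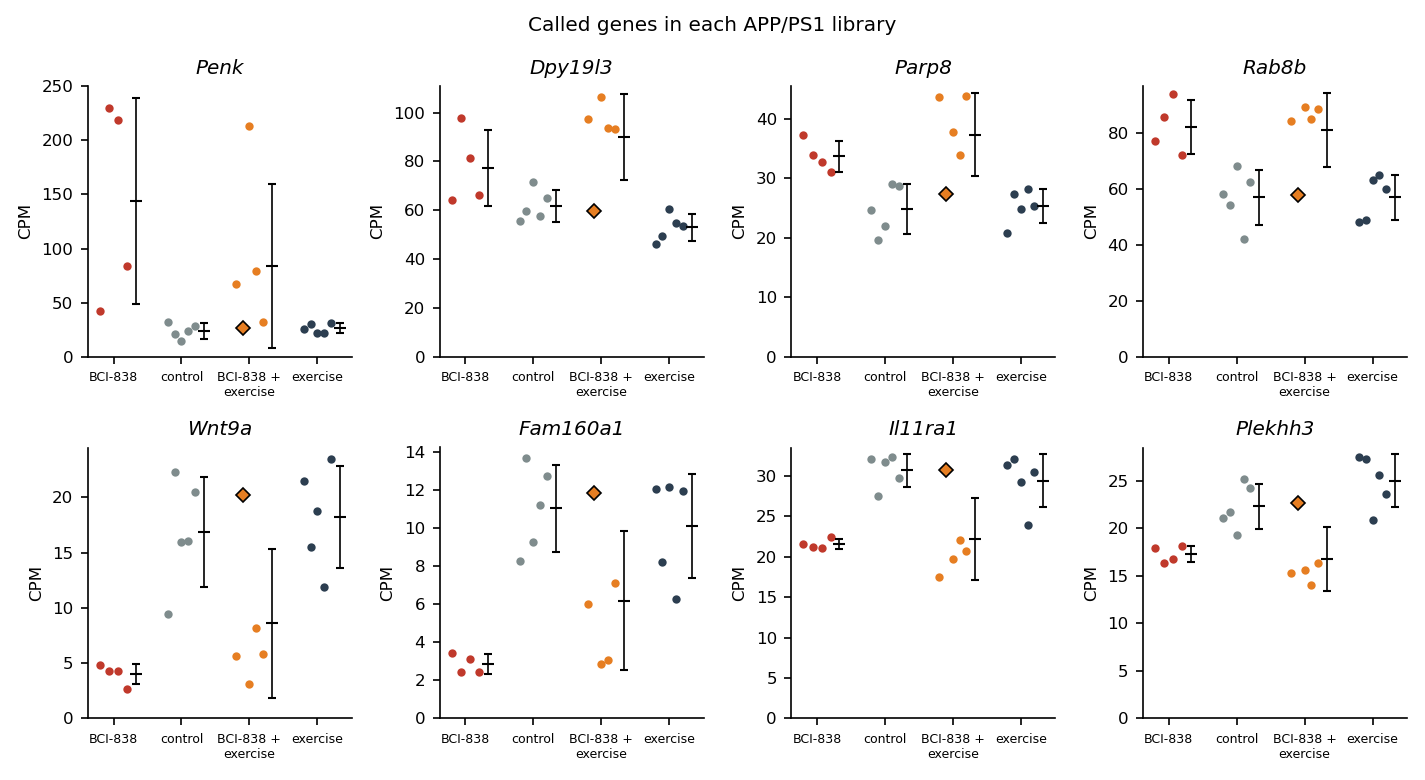
Levels in CPM (vertical axis, from 0) of 4 called genes that rose and 4 that fell in each APP/PS1 library, by group, with 1 point per library and bars for mean and SD; the outlined diamond is combined replicate 2. The diamond sits with the control and exercise libraries in each panel, as at 57.7 CPM for Rab8b and 20.2 CPM for Wnt9a.

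Promoter sequences were read from RefSeq (GRCm38.p6) for the called genes, because the receptors that BCI-838 blocks act on cyclic AMP and a cyclic AMP response element is a short, known promoter motif. Of the 12 named called genes 11 matched, with 13 promoters of 250 bases before and 50 after a start site. Penk had no match, so its promoter was not searched for any motif. The full element TGACGTCA was in 0 of the 13 and in 1.79% of all 32851 promoters of that length. Its core CGTCA, on either strand, was in 5 promoters of 4 genes (Dpy19l3, Parp8, Plekhh3 and Slc25a28) and in 20.8% of all promoters. The Plekhh3 promoters overlap and hold a core site in common, which is counted for both. The AP-1 motif TGANTCA was in 0 of the 13 and in 7.81% of all. A full element contains the core, so these matches overlap. The 250 bases before the start are shown for 2 genes that rose, Dpy19l3 (chr7:35754455-35754704, minus strand) and Prkab2 (chr3:97657962-97658211, plus strand), and 2 that fell, Plekhh3 (chr11:101171373-101171622, minus strand) and Il11ra1 (chr4:41760193-41760442, plus strand). In each pair the first holds the core, in capitals, and the second does not.
Dpy19l3 promoter: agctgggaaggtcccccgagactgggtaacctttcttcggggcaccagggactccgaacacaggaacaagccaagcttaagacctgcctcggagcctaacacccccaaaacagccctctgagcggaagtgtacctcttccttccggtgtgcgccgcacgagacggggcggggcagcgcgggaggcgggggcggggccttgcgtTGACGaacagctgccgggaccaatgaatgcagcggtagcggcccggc
Prkab2 promoter: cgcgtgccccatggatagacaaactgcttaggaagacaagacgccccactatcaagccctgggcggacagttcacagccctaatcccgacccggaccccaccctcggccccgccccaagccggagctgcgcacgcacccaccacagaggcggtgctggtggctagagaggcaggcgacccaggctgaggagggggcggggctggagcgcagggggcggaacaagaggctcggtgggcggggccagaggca
Plekhh3 promoter: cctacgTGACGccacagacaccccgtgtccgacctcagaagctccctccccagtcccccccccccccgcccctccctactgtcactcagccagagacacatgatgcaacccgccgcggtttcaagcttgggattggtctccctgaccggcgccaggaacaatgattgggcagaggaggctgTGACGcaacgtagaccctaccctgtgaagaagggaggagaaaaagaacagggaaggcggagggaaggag
Il11ra1 promoter: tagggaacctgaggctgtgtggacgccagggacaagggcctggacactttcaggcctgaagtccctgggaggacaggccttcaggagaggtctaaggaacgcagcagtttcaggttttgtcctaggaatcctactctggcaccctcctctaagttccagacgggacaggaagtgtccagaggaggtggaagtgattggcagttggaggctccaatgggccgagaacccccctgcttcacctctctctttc

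The 2 comparisons that make up the main effect share no library. BCI-838 without a wheel (BCI-838 against control) gave 0 called genes by edgeR, with 1896 at an unadjusted p under 0.05. With a wheel (combined against exercise) it also gave 0, with 3201 at an unadjusted p under 0.05. By DESeq2 the calls were 182 without and 321 with the wheel, and by voom 390 and 512. At an unadjusted p under 0.05, 363 genes were in both comparisons, which is 19.1% of those without and 11.3% of those with the wheel. Over all 18155 genes tested, 3201 passed with the wheel and 1896 without it, so these overlaps were close to the shares among all genes. Of the 363, 158 were higher in both, 152 lower in both, 15 higher without and lower with the wheel, and 38 the reverse. Across all genes, 56.6% had the same sign in both and the Spearman rho of the log2 fold changes was 0.089, a description over 18155 genes that share libraries. All 17 called genes had the same sign and an unadjusted p under 0.05 in both comparisons, and choosing them by the main effect favours that. Penk was at 2.59 without and 1.67 with the wheel, Wnt9a at -2.07 and -1.08, and Fam160a1 at -1.95 and -0.71 on the log2 scale.

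**Figure D2:**
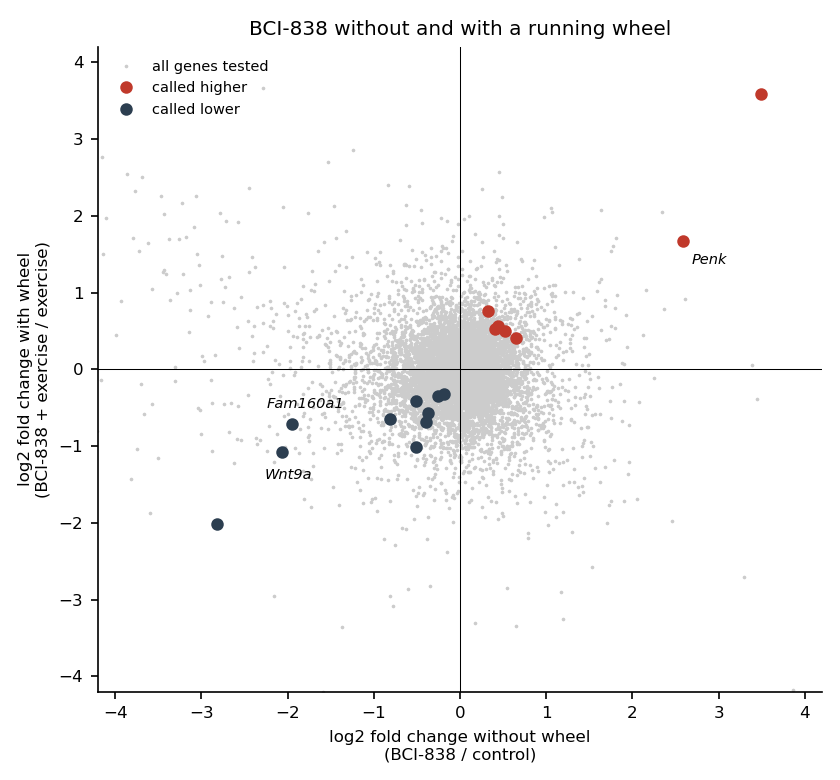
Log2 fold change of BCI-838 without a wheel (horizontal axis, BCI-838 over control) and with a wheel (vertical axis, combined over exercise) for the genes tested, with called genes as large points; 40 genes beyond 4.2 on either axis are not drawn. The 17 called genes lie in the lower left and upper right quadrants, while the cloud of all genes shows a rho of 0.089.

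The difference between these comparisons was tested as an interaction of drug and wheel, and 0 genes were called by edgeR (1833 at an unadjusted p under 0.05, lowest adjusted p = 0.36), against 77 by DESeq2. The 3 genes with the smallest p were Ak4, a mitochondrial adenylate kinase, Prr16 and Calml4, a calmodulin-like gene. Ak4 averaged 29.3 ± 2.88 CPM in BCI-838 mice (SD, n = 4) and 40.6 ± 6.84 CPM in combined mice (SD, n = 5), against 36.1 ± 2.40 CPM in control mice and 29.0 ± 3.16 CPM in exercise mice (SD, n = 5 each). It was lower with BCI-838 among mice without a wheel and higher among mice with one, with log2 fold changes of -0.30 and 0.49. Calml4 averaged 0.0213 ± 0.0163 CPM in BCI-838 mice (SD, n = 4) and 0.358 ± 0.557 CPM in combined mice (SD, n = 5), against 2.21 ± 2.12 CPM in control mice and 0.0864 ± 0.0746 CPM in exercise mice (SD, n = 5 each), and 3 of the 5 control libraries are among those with high Ttr.

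The number of calls rested on single libraries. Combined replicate 2 lay inside the range of the mice without drug for 15 of the 17 called genes, while each other mouse with BCI-838 did so for 5 or fewer. Among mice without drug, control replicate 3 lay inside the range of the drug mice for 11, and control replicate 1 and exercise replicate 4 for 7 each. That range includes combined replicate 2, which set its end at 57.7 CPM for Rab8b and 20.2 CPM for Wnt9a. These counts therefore depend in part on combined replicate 2. Without combined replicate 2 there were 227 calls, without combined replicate 5 there were 34, without BCI-838 replicate 1 there were 7, without control replicate 3 there were 228, without exercise replicate 4 there were 658 and without exercise replicate 3 there were 26. Leaving out any of the other 13 libraries gave 0 calls, with an adjusted p at the gene ranked 17 of between 0.0679 and 0.127 by edgeR. All 17 genes kept their direction in each of these 19 fits. The same libraries chose the 17 genes, which favours that, here and in the other fits of these libraries.

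The content of granule neuron transcripts also differed between libraries. Summed over the 22 listed markers of mature granule neurons, combined replicate 2 had 3039 CPM and combined replicate 3 had 3114 CPM. Control replicate 3 had 1268 CPM and exercise replicate 4 had 1856 CPM. Single markers can order libraries otherwise, as for Calb1 at 99.7 CPM in combined replicate 2 and 26.1 CPM in combined replicate 3. Why single libraries moved the calls was not tested. By group the sums were 1878 to 2489 CPM in BCI-838 mice and 1431 to 3114 CPM in combined mice, against 1268 to 3780 CPM in control mice and 1856 to 3415 CPM in exercise mice. With the mean log2 CPM of this list as a covariate, chosen after seeing the data, 168 genes were called and all 17 kept their call. Without the 4 libraries over 100 CPM of Ttr, which leaves 2 controls, 0 genes were called and all 17 kept their direction, with Penk at a log2 fold change of 2.24 and Wnt9a at -1.31; with the choroid plexus list as a covariate there were also 0 calls.

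**Figure D3:**
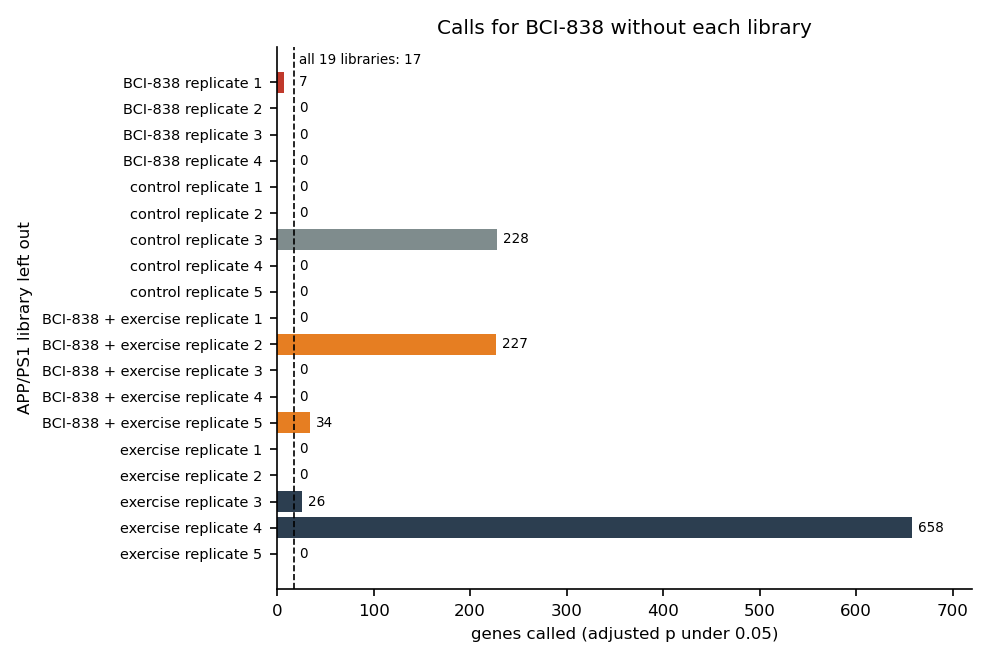
Number of genes called for BCI-838 (horizontal axis) after leaving out each APP/PS1 library in turn (rows, coloured by group), with a dashed line at the 17 calls of all 19 libraries. The count runs from 0 in 13 fits to 658 without exercise replicate 4.

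The receptors that the drug targets did not pass the test. Grm2 had 81.0, 101, 82.0 and 80.7 CPM in BCI-838 mice and 79.6, 128, 123, 59.7 and 37.8 CPM in combined mice, against 101, 163, 75.6, 125 and 134 CPM in control mice and 141, 127, 116, 77.7 and 119 CPM in exercise mice. The groups overlap widely, with a log2 fold change of -0.46 (SE 0.20; edgeR, adjusted p = 0.244). It was -0.14 without the 4 libraries with high Ttr, -0.16 with the granule neuron covariate and -0.43 with the choroid plexus covariate. Grm3 averaged 48.2 ± 1.56 CPM in BCI-838 mice (SD, n = 4) and 42.0 ± 7.94 CPM in combined mice (SD, n = 5), against 41.7 ± 14.9 CPM in control mice and 42.4 ± 8.06 CPM in exercise mice (SD, n = 5 each), a log2 fold change of 0.10 (SE 0.14; edgeR, adjusted p = 0.743), which turned to -0.11 without the libraries with high Ttr.

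Of the 32 measured genes of group II receptors and inhibitory G protein signalling, 22 were higher and 10 lower with BCI-838, with a median log2 fold change of 0.10 beside -0.01 over all genes, and 0 were called. The median was 0.0076 without and 0.097 with the wheel, and without the libraries with high Ttr 19 were higher and 13 lower (median 0.035). The adenylate cyclases Adcy5 and Adcy2, which make cyclic AMP, were at 0.26 (SE 0.10) and 0.19 (SE 0.08). Rgs4, which shortens G protein signals, was at 0.40 (SE 0.16) and the G protein subunit gene Gnb2 at -0.16 (SE 0.06). Of the 5 other metabotropic glutamate receptors 4 were higher (median 0.23, 0 called), with Grm5 at 0.33 (SE 0.10) and Grm7 at 0.23 (SE 0.08). Grm5, a group I receptor that raises calcium, averaged 323 ± 42.2 CPM in BCI-838 mice (SD, n = 4) and 345 ± 50.8 CPM in combined mice (SD, n = 5), against 259 ± 43.0 CPM in control mice and 270.2 ± 46.1 CPM in exercise mice (SD, n = 5 each).

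Beside Penk, a pair of opioid genes was looked at after their values were seen. Oprd1, the delta receptor that enkephalins act on, had 23.1, 33.8, 27.2 and 25.9 CPM in BCI-838 mice and 29.2, 15.1, 35.2, 29.6 and 19.3 CPM in combined mice, against 16.0, 14.2, 23.1, 9.78 and 17.4 CPM in control mice and 13.9, 9.85, 18.7, 17.5 and 14.0 CPM in exercise mice. The mice with BCI-838 were above all others in 7 of 9, and the log2 fold change of 0.78 (SE 0.17) did not pass (adjusted p = 0.0678 by edgeR). Pdyn, the precursor of the dynorphins, was at -0.55 (SE 0.21; edgeR, adjusted p = 0.195).

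Immediate early genes, which report recent neuronal activity, showed no common direction. Of 20 measured, 10 were higher and 10 lower (median -0.0035, 0 called). Their median was -0.22 without the wheel and 0.19 with it. Fosl2 was at a log2 fold change of 0.51 (SE 0.24), Nptx2 at 0.45 (SE 0.22), Jun at -0.39 (SE 0.19) and Egr4 at -0.39 (SE 0.19), none of them called.

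Genes of adult neurogenesis were not called. Of 20 stem and progenitor markers 8 were higher and 12 lower (median -0.04), of 22 proliferation genes 13 were higher and 9 lower (median 0.11), and of 21 genes of neuroblasts and immature neurons 12 were higher and 9 lower (median 0.01). The proneural factor Neurog2 was at a log2 fold change of 0.87 (SE 0.34), the Notch target Hes5 at -0.32 (SE 0.12) and the glial and stem cell factor Sox9 at 0.21 (SE 0.09). Within the proliferation list the mitotic genes Bub1 and Tpx2 were at 1.17 (SE 0.34) and 0.52 (SE 0.15), while the replication licensing genes Mcm6 and Mcm3 were at -0.75 (SE 0.21) and -0.32 (SE 0.09). With the granule neuron covariate Mcm6 was at -0.30 and Mcm3 at -0.39, and Bub1 and Tpx2 were at 1.07 and 0.50.

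Sox11, a factor of immature neurons, averaged 49.4 ± 2.86 CPM in BCI-838 mice (SD, n = 4) and 38.2 ± 14.5 CPM in combined mice (SD, n = 5), against 29.9 ± 5.75 CPM in control mice and 32.5 ± 5.57 CPM in exercise mice (SD, n = 5 each). Its log2 fold change of 0.48 (SE 0.15) did not pass (adjusted p = 0.134 by edgeR), nor did that of Sox4 at 0.25 (SE 0.10), Neurod2 at -0.49 (SE 0.18) or Bhlhe22 at -0.64 (SE 0.23). With the granule neuron covariate Neurod2 was at -0.18 and Bhlhe22 at -0.15, while Sox11 was at 0.65 and Sox4 at 0.25. Bub1 averaged 0.386 ± 0.149 CPM in BCI-838 mice (SD, n = 4) and 0.342 ± 0.186 CPM in combined mice (SD, n = 5), against 0.109 ± 0.0785 CPM in control mice and 0.233 ± 0.0955 CPM in exercise mice (SD, n = 5 each).

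Markers of mature granule neurons leaned lower, and that lean depended on which libraries were kept. Of 22 measured, 5 were higher and 17 lower (median log2 fold change -0.29, 7 lower at an unadjusted p under 0.05, 0 called). Calb1, the calcium buffer calbindin that marks mature granule neurons, had 53.6, 28.6, 36.4 and 38.4 CPM in BCI-838 mice and 49.1, 99.7, 26.1, 28.3 and 63.9 CPM in combined mice, against 83.1, 156, 45.8, 111 and 116 CPM in control mice and 116, 129.7, 115, 64.5 and 99.5 CPM in exercise mice. Combined replicate 2 was the highest of the mice with drug and control replicate 3 the lowest of those without it. The log2 fold change of Calb1 was -1.18 (SE 0.26; edgeR, adjusted p = 0.0678), that of the tryptophan oxygenase gene Tdo2 -1.92 (SE 0.42), that of the desmosomal gene Dsp -1.66 (SE 0.44) and that of Ahcyl2 -0.56 (SE 0.15). Without the 4 libraries with high Ttr, 13 of the 22 were higher and 9 lower (median 0.05), with Calb1 at -0.88. In the other settings the list median stayed below 0 for the choroid plexus covariate, at -0.123, and between -0.357 and -0.241 on leaving out 1 library. With all 19 libraries it was -0.265 without and -0.226 with the wheel.

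Neighbouring tissue also differed between the arms. Of 26 choroid plexus and ependymal genes 25 were lower (median -1.04, 0 called), with medians of -2.61 without and 0.87 with the wheel. Their summed level was 282 to 372 CPM in BCI-838 mice and 221 to 809 CPM in combined mice, against 342 to 2818 CPM in control mice and 268 to 394 CPM in exercise mice. Dorsal midbrain factors had a median of 1.42 without and -1.33 with the wheel and of 0.02 in the main effect, and summed to 78.1 to 148 CPM in BCI-838 mice and 6.12 to 59.5 CPM in combined mice, against 15.6 to 115 CPM in control mice and 10.7 to 151 CPM in exercise mice. Of 18 genes of thalamus, cortex and septum 15 were lower (median -0.30), with Ramp3 at -1.59 (SE 0.34) and Zic4 at -1.69 (SE 0.52). Zic4 was highest in control replicates 4 and 2, at 48.9 and 20.7 CPM, which are libraries with high Ttr. Without the libraries with high Ttr, Zic4 was at -0.30 and Ramp3 at -1.29. The part of these tissues in the main effect was tested only through the settings above for the choroid plexus and, for the dorsal midbrain list as a covariate, through a fit with 26 calls that kept all 17.

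Other neurons showed no called gene. Of 25 markers of CA field pyramidal neurons and mossy cells 12 were higher and 13 lower (median -0.04), and of 20 interneuron genes 12 were higher and 8 lower (median 0.09). Both medians changed sign without the libraries with high Ttr, to 0.08 for pyramidal neurons and mossy cells and -0.14 for interneurons (8 higher and 12 lower), and both had opposite signs without and with the wheel. Npy, an interneuron peptide, had 26.6, 109, 81.7 and 40.9 CPM in BCI-838 mice and 56.4, 38.6, 131, 116 and 47.9 CPM in combined mice, against 45.4, 27.9, 36.2, 33.7 and 57.7 CPM in control mice and 38.6, 26.2, 44.5, 27.4 and 59.7 CPM in exercise mice. The mice with BCI-838 that were high for Npy, BCI-838 replicates 2 and 3 and combined replicates 3 and 4, were also 4 of the 5 highest for Penk. The log2 fold change of Npy was 0.84 (SE 0.28; edgeR, adjusted p = 0.159), that of Gad2, which makes GABA, 0.54 (SE 0.18), that of the substance P precursor Tac1 -0.61 (SE 0.19) and that of Cort -0.996 (SE 0.32).

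Most genes of the synaptic vesicle, potassium channels and GABA-A receptors were higher in the main effect. Of 37 genes of the synaptic vesicle and active zone 28 were higher (median 0.13, 9 higher and 1 lower at an unadjusted p under 0.05, 0 called), of 37 potassium channel genes 27 were higher (median 0.12) and of 14 GABA-A receptor subunits 10 were higher (median 0.11). Among 37 genes for postsynaptic scaffolds and ionotropic glutamate receptors, 21 were higher (median 0.03), with 12 higher and 25 lower without the wheel (median -0.13) and 29 higher and 8 lower with it (median 0.18). The vesicle protein gene Sv2c was at a log2 fold change of 0.87 (SE 0.24), the active zone scaffold gene Pclo at 0.43 (SE 0.11) and Rimbp2 at 0.36 (SE 0.11). For the vesicle list the median was -0.0044 without and 0.27 with the wheel.

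Subunits of the GABA-A receptor did not move one way. Gabrb2 averaged 414 ± 25.5 CPM in BCI-838 mice (SD, n = 4) and 364 ± 49.4 CPM in combined mice (SD, n = 5), against 285 ± 43.7 CPM in control mice and 298 ± 57.5 CPM in exercise mice (SD, n = 5 each), a log2 fold change of 0.41 (SE 0.09; edgeR, adjusted p = 0.0686). Gabrb1 was at 0.55 (SE 0.17). Gabrd, the delta subunit of extrasynaptic receptors that granule neurons use, was at -0.56 (SE 0.13), with 30.1 ± 5.08 CPM in BCI-838 mice (SD, n = 4) and 32.98 ± 7.95 CPM in combined mice (SD, n = 5), against 43.3 ± 8.43 CPM in control mice and 50.2 ± 11.2 CPM in exercise mice (SD, n = 5 each). The potassium channel gene Kcna5 was at -0.65 (SE 0.23).

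Genes for ribosomes and respiration leaned lower. All 77 measured cytosolic ribosomal protein genes were lower with BCI-838 (median log2 fold change -0.18, 58 at an unadjusted p under 0.05, 0 called), as they were without the 4 libraries with high Ttr (median -0.19). Of 69 nuclear-encoded respiratory chain genes 66 were lower (median -0.12, 29 at an unadjusted p under 0.05), and of 31 proteasome subunits 26 were lower (median -0.07). The ribosomal genes Rpsa and Rps26 were at -0.29 (SE 0.07) and -0.24 (SE 0.06), the complex I genes Ndufv3 and Ndufb2 at -0.19 (SE 0.05) and -0.24 (SE 0.07), and the proteasome gene Psmb4 at -0.17 (SE 0.05). Rpsa had 318 ± 21.5 CPM in BCI-838 mice (SD, n = 4) and 313 ± 39.5 CPM in combined mice (SD, n = 5), against 359.7 ± 26.7 CPM in control mice and 416 ± 60.05 CPM in exercise mice (SD, n = 5 each). The medians were -0.10 without and -0.26 with the wheel for ribosomal genes. Their summed level was 13000 to 14100 CPM in BCI-838 mice and 12500 to 14700 CPM in combined mice. It was 13100 to 16000 CPM in control mice and 12600 to 18800 CPM in exercise mice, so the groups overlapped. Over all 18155 genes tested, 1722 were lower at an unadjusted p under 0.05.

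**Figure D4:**
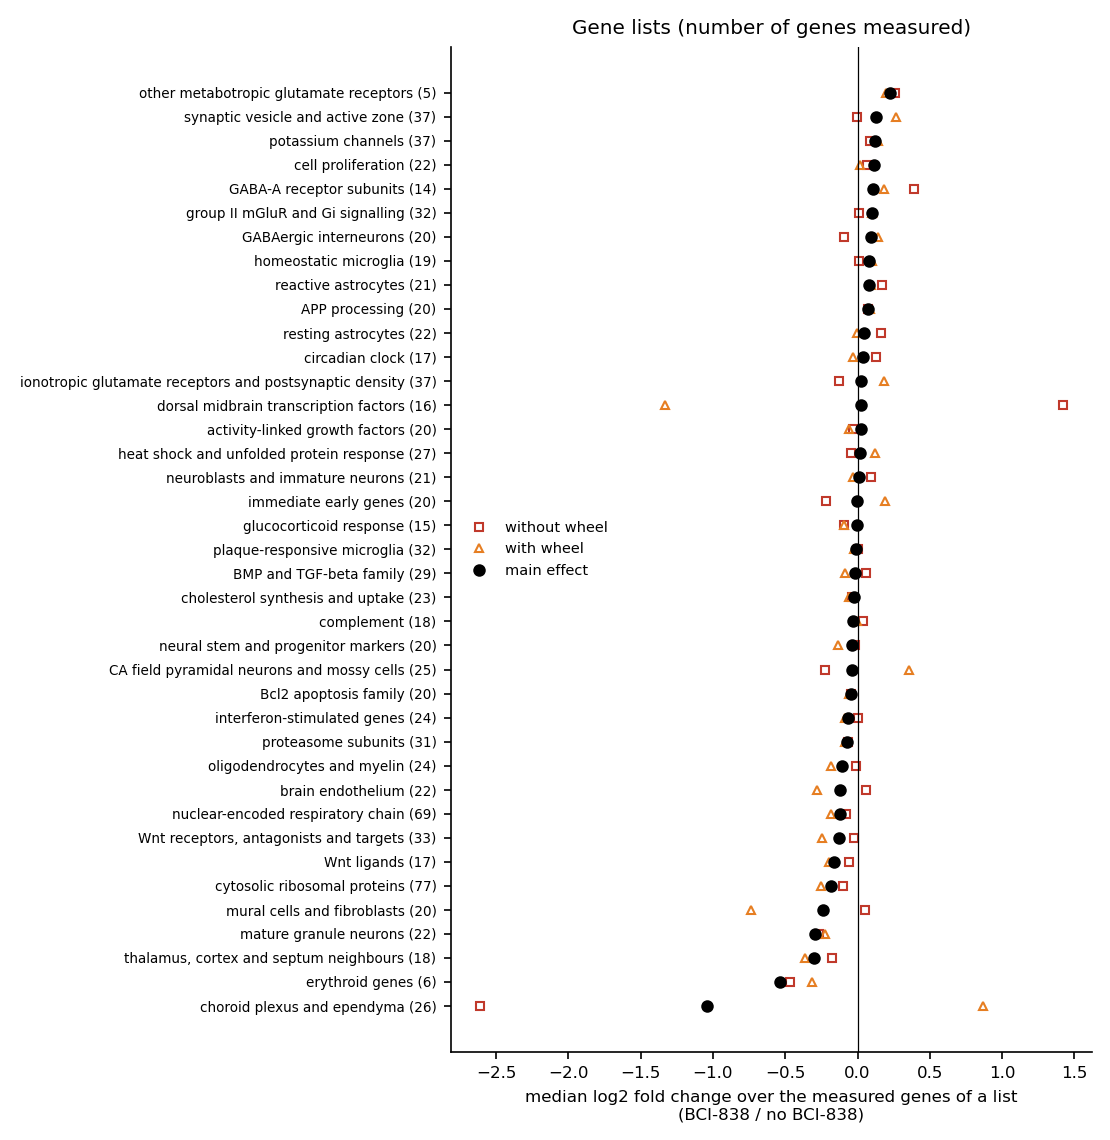
Median log2 fold change with BCI-838 (horizontal axis) over the measured members of each of 39 gene lists (rows, with the number measured), for the main effect, without a wheel and with a wheel. Most lists lie near 0, ribosomal and respiratory lists lie below 0 in both comparisons, and choroid plexus and dorsal midbrain lists take opposite signs with and without the wheel.

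The share of genes that were higher with BCI-838 also differed by gene length. Among the 96.2% of tested genes with an exonic length from GENCODE, the share higher with BCI-838 was 37.4% under 1 kb, 27.9% at 1 to 2 kb, 35.4% at 2 to 4 kb, 52.1% at 4 to 8 kb and 73.8% over 8 kb. The Spearman rho between length and the log2 fold change across genes was 0.30 in the main effect, 0.19 without and 0.25 with the wheel, as a description over genes of the same libraries. Median exonic length was 1.78 kb for the ribosomal list, 1.80 kb for the respiratory list and 8.34 kb for the vesicle list. Length did not order all of the lists. The list of postsynaptic scaffolds and ionotropic glutamate receptors was longer, at 9.12 kb, with a median log2 fold change of 0.03. The interneuron list, at 2.83 kb, had a median of 0.09. Genes over 8 kb took 29.4 to 30.2% of counts in BCI-838 mice and 28.4 to 30.2% in combined mice, against 26.9 to 29.8% in control mice and 25.7 to 29.8% in exercise mice. Among the named called genes, exonic length ran from 1634 bases (Penk) to 11367 bases (Dpy19l3) for those that rose. For those that fell it ran from 1323 bases (Tpd52l1) to 5290 bases (Fam160a1). The part of this length gradient in the results for the lists and for single genes was not tested.

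**Figure D5:**
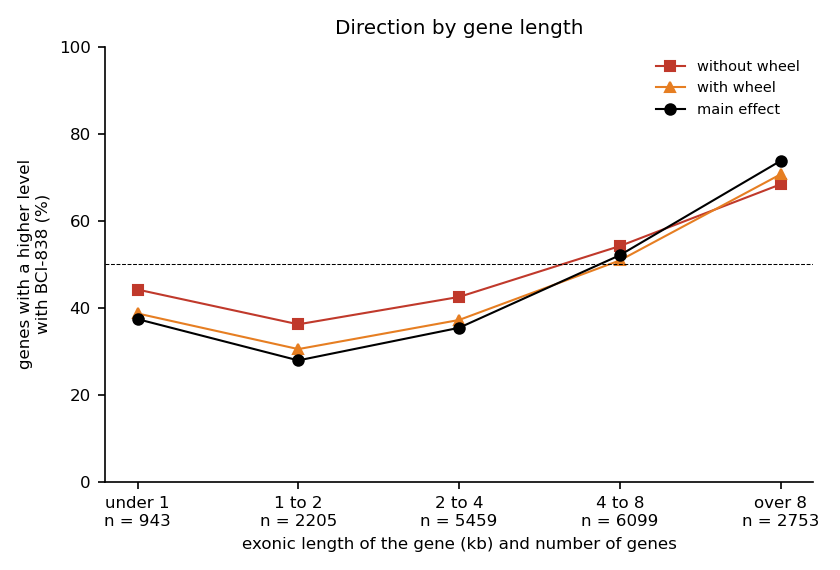
Share of genes with a higher level with BCI-838 (vertical axis, %) by exonic length (horizontal axis, kb, with the number of genes), for the main effect, without a wheel and with a wheel; the dashed line marks 50%. In the main effect the share is lowest at 27.9% for genes of 1 to 2 kb and highest at 73.8% over 8 kb.

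Glial genes of the plaque response were not called. Of 21 reactive astrocyte genes 13 were higher (median 0.08), of 22 resting astrocyte genes 17 were higher (median 0.04), of 19 homeostatic microglia genes 15 were higher (median 0.08) and of 32 plaque-responsive microglia genes 14 were higher and 18 lower (median -0.01). Without the libraries with high Ttr the astrocyte lists turned, with 8 of 22 resting genes higher (median -0.04) and 10 of 21 reactive genes higher (median -0.04). Serpina3n, an acute-phase astrocyte gene, averaged 46.1 ± 9.44 CPM in BCI-838 mice (SD, n = 4) and 72.2 ± 28.1 CPM in combined mice (SD, n = 5), against 35.04 ± 11.9 CPM in control mice and 33.6 ± 10.5 CPM in exercise mice (SD, n = 5 each), a log2 fold change of 0.75 (SE 0.20; edgeR, adjusted p = 0.112). Gfap was at 0.48 (SE 0.17), the complement gene C4b at 0.43 (SE 0.15), the microglial genes Gpnmb at 1.03 (SE 0.31) and C3ar1 at 0.35 (SE 0.11), and Csf1 at -0.40 (SE 0.12). Of 24 oligodendrocyte genes 20 were lower (median -0.11) and of 24 interferon-stimulated genes 16 were lower (median -0.07). Complement genes were higher in 7 and lower in 11 of 18 (median -0.03).

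In the main effect most vascular and blood genes were lower, none of them called. Of 22 endothelial genes 19 were lower (median -0.12), of 20 genes of mural cells and fibroblasts 14 were lower (median -0.24) and all 6 measured erythroid genes were lower (median -0.53). Endothelial genes were lower in 9 of 22 without the wheel (median 0.06) and in 21 of 22 with it (median -0.28). For mural cells and fibroblasts the median was 0.05 without and -0.74 with the wheel, and their summed level was 255 to 369 CPM in BCI-838 mice and 177 to 271 CPM in combined mice, against 248 to 414 CPM in control mice and 249 to 440 CPM in exercise mice. The meningeal fibroblast gene Ogn was at a log2 fold change of -1.25 (SE 0.26; edgeR, adjusted p = 0.0594), Aldh1a2 at -1.15 (SE 0.30), the tight junction gene Cldn5 at -0.40 (SE 0.14) and the haemoglobin gene Hba-a1 at -0.72 (SE 0.21).

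Of 17 measured Wnt ligands 6 were higher and 11 lower (median -0.16), and Wnt9a was the only member of the 39 lists that was called. Wnt4 was at -0.57 (SE 0.18) and Wnt7b at -0.24 (SE 0.11). Of 33 Wnt receptors, antagonists and targets 24 were lower (median -0.13), with the antagonist gene Sfrp4 at 0.90 (SE 0.22) and the receptor genes Fzd5 and Fzd9 at -0.53 (SE 0.17) and -0.41 (SE 0.14). Among 29 BMP and TGF-beta genes 14 were higher and 15 lower (median -0.02). Fst, the secreted antagonist follistatin, averaged 0.129 ± 0.04999 CPM in BCI-838 mice (SD, n = 4) and 0.722 ± 1.18 CPM in combined mice (SD, n = 5), against 1.85 ± 1.08 CPM in control mice and 1.98 ± 0.824 CPM in exercise mice (SD, n = 5 each), with 8 of the 9 mice with BCI-838 below all others and an adjusted p of 0.0705 by edgeR.

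Growth factors and genes of APP processing were not called. Of 20 growth factors linked to activity 11 were higher and 9 lower (median 0.02). Igf2 had 37.7, 26.6, 30.8 and 36.3 CPM in BCI-838 mice and 18.3, 29.5, 18.6, 12.6 and 46.7 CPM in combined mice, against 79.7, 46.6, 57.2, 94.6 and 63.4 CPM in control mice and 42.5, 93.4, 42.4, 52.3 and 32.6 CPM in exercise mice. In 6 of the 9 mice with BCI-838 the level was below all others, and the log2 fold change was -1.06 (SE 0.24; edgeR, adjusted p = 0.0678). Igf1 was at 0.39 (SE 0.11), and the neurotrophin gene Ntf3 at -1.65 (SE 0.45). Of 20 genes of APP processing 15 were higher (median 0.07), and 11 without the libraries with high Ttr (median 0.02), with the receptor gene Lrp1 at 0.30 (SE 0.09) and the alpha-secretase gene Adam10 at 0.20 (SE 0.08). App itself averaged 3551 ± 229 CPM in BCI-838 mice (SD, n = 4) and 3877 ± 304 CPM in combined mice (SD, n = 5), against 3388 ± 372 CPM in control mice and 3227 ± 507 CPM in exercise mice (SD, n = 5 each), a log2 fold change of 0.17 (SE 0.08; edgeR, adjusted p = 0.283), and Prnp was at 0.05 (SE 0.07). Native and transgene reads of App cannot be told apart in these counts.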

How the data were processed

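Read counts per gene were deposited by the authors as 1 table, and the submitters' processing notes name STAR, HTSeq and DESeq with mouse build mm10. The sources used here do not give versions, annotation or strand setting. The authors' normalised table was not used here.

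The 18155 of 26667 genes kept by filterByExpr (minimum count 10, minimum total 15) were scaled with TMM factors and fitted with 1 mean per group over 19 libraries (edgeR 4.0.16, R 4.3.3, robust quasi-likelihood F test, Benjamini-Hochberg over all genes tested, called under 0.05). SE is the log2 fold change over the square root of F, and CPM uses TMM-scaled totals. Gene lists were described by counts and medians, without a test. Positions are from RefSeq GRCm38.p6 and exon lengths and overlaps from GENCODE on the same assembly. The fit was also run on simulated counts with known changes, drawn for each gene separately. Those counts held no tissue differences between libraries, so they cannot show how far the calls rest on single libraries.

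Named genes were the called genes, up to 15 per direction, with the next by p to 12; Grm2, Grm3, App and Prnp; the 3 smallest p of the interaction; and up to 4 list members by p. Predicted and small RNA genes were left out. Some genes the rule names are not reported here. The comparison, lists and rules were chosen with earlier results of these data known. Alternatives were DESeq size factors, no filter, at least 1 CPM in 4 libraries, the DESeq2 1.42.0 test, voom with quality weights (limma 3.58.1), the replicate number as a block, 1 surrogate variable (sva 3.50.0), all 24 libraries, tissue covariates, an additive model and leaving out libraries. No 2 libraries of a group agreed within sampling noise (lowest chi-square per gene 18.5 over 36 pairs).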

Additional observations from a re-analysis of the deposited data

Results flagged for a closer look

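Single libraries stood apart from the rest of their group in 30 of 508 groups of values of the 127 named genes, or 5.91%, by the size of the gap to the nearest library; chance gives about 1 in 20. Of these, 9 were in combined replicate 2 and 6 in exercise replicate 4.

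In CPM, combined replicate 2 was lowest of its group for Dpy19l3 (59.9), Rab8b (57.7), App (3348) and Adam10 (71.6). It was highest of its group for Plekhh3 (22.6), Ahcyl2 (401), Dsp (175), Pou4f1 (0.745) and Fst (2.81). For Dpy19l3, Rab8b and Plekhh3, which were called, it lay on the side of the mice without drug. Combined replicate 3 was highest for Penk (213) and Sfrp4 (5.6), combined replicate 5 highest for Calml4 (1.35) and combined replicate 1 lowest for Bmp7 (1.45). Among BCI-838 mice, replicate 2 was highest for Grm2 (101) and C3ar1 (3.17), replicate 1 highest for Ntf3 (4.81) and replicate 3 highest for Aldh1a2 (6.99).

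Among mice without drug, control replicate 3 was highest for Rgs4 (217) and lowest for Gpnmb (4.44), and control replicate 5 was highest for Ptx3 (0.969). Exercise replicate 4 was lowest for Mcm6 (15.1), Mcm3 (4.66), Gabrd (30.7), Bbc3 (10.3) and Mvd (16.5) and highest for Pou4f1 (7.81). Exercise replicate 5 was lowest for Prr16 (3.45) and C3ar1 (1.69), and exercise replicate 2 was highest for Ramp3 (32.9) and lowest for Sall1 (20.2). The cause was not tested.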

How the results depend on the processing

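Leaving out 1 library at a time moved the count of called genes for the main effect between 0 and 658, for BCI-838 without a wheel between 0 and 3, with a wheel between 0 and 95, and for the interaction between 0 and 1, against 17, 0, 0 and 0. For the main effect DESeq2 called 581 genes, voom 1939, the surrogate variable 276, the fit of all 24 libraries 55, the dorsal midbrain covariate 26, the additive model 11 and the granule neuron covariate, chosen after seeing the data, 168; without the 4 libraries over 100 CPM of Ttr it was 0, as with a choroid plexus covariate, with 2667 and 2665 genes at an unadjusted p under 0.05. DESeq size factors gave 17 calls, no filter 13 and the 1 CPM filter 16. DESeq2 and voom called 182 and 390 genes without a wheel and 321 and 512 with it, and DESeq2 called 77 for the interaction. The cause of these differences was not tested. Grm3 reversed to -0.11 without the libraries with high Ttr, -0.014 with the choroid plexus covariate and -0.078 with the granule covariate; the other 126 of 127 named genes kept their direction in all settings in which they were tested.

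Replicate numbers were not used to pair the samples. Of 27 same-numbered pairs, 8 had a correlation over 0.1 (range -0.26 to 0.4). Pairs with different numbers were not compared, so these values cannot decide whether the numbers pair the samples. With the replicate block 57 genes were called, 16 of the 17 among them. Depth limits genes with few counts, such as Tmem171.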

Other observations

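Genes of stress, sterol synthesis, the clock and apoptosis were not called either. Of 27 heat shock and unfolded protein response genes 19 were higher with BCI-838 (median log2 fold change 0.02), against 9 of 27 without the libraries with high Ttr (median -0.03), and the chaperone gene Hsph1 averaged 363 ± 71.3 CPM in BCI-838 mice (SD, n = 4) and 377 ± 103 CPM in combined mice (SD, n = 5), against 272 ± 23.3 CPM in control mice and 244 ± 31.6 CPM in exercise mice (SD, n = 5 each), with an adjusted p of 0.0678 by edgeR. Of 17 clock genes 9 were higher (median 0.04), and 8 without the libraries with high Ttr (median -0.0011). The repressor gene Bhlhe41 was at a log2 fold change of 0.68 (SE 0.14; edgeR, adjusted p = 0.0612) and Per2 at 0.40 (SE 0.11). Of 23 cholesterol genes 15 were lower (median -0.02), with Tm7sf2 at -0.31 (SE 0.07) and Mvd at -0.32 (SE 0.08). Of 15 glucocorticoid response genes 6 were higher and 9 lower (median -0.0043), and 9 were higher and 6 lower without the libraries with high Ttr (median 0.01). Of 20 Bcl2 family genes 11 were lower (median -0.05). Hrk, a death-promoting member, averaged 25.0 ± 5.48 CPM in BCI-838 mice (SD, n = 4) and 50.1 ± 19.1 CPM in combined mice (SD, n = 5), against 75.9 ± 23.9 CPM in control mice and 62.7 ± 17.8 CPM in exercise mice (SD, n = 5 each), a log2 fold change of -0.96 (SE 0.20; edgeR, adjusted p = 0.0594).

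The 5 called genes with predicted or clone names are named after their values were seen. Gm20125 rose, with 0.983 ± 0.727 CPM in BCI-838 mice (SD, n = 4) and 0.539 ± 0.452 CPM in combined mice (SD, n = 5), against 0.0634 ± 0.0497 CPM in control mice and 0.0359 ± 0.0254 CPM in exercise mice (SD, n = 5 each), at a log2 fold change of 3.54 (SE 0.55; edgeR, adjusted p = 0.0441). A330102I10Rik rose by 0.53 on the log2 scale. Gm16551 fell at a log2 fold change of -2.42, 5033430I15Rik at -0.76 and 1300014I06Rik at -0.73. No sequence or role is given for them here.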
